A study of Mus musculus with 14 samples.

Results

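Knockout-only H3K27ac regions are the stretches of chromatin that carried a called H3K27ac peak in all 3 Slc31a1-deleted libraries of mouse regulatory T cells and in none of the 3 control libraries. Merging the 6 H3K27ac peak lists at 1 bp of overlap on chromosomes 1 to 19 gave 36809 regions, and 299 of them met this rule, which is 0.812% of the merged regions. The same rule turned round gave 977 control-only regions, or 2.65%. Since peak presence in all 6 libraries chose the regions, their number, strength, width and distance from control peaks are descriptions and carry no test.

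The libraries came from regulatory T cells sorted by FACS, with 140000 cells per sample, and were made by CUT&Tag, in which an antibody against a histone mark tethers a transposase that cuts out and tags the marked chromatin. The knockout samples are the chimeras labelled ChimeraKO, from mice written Foxp3YFP-Slc31a1△;wt, in which Slc31a1 is deleted by a Cre expressed from the Foxp3 gene. The control samples are the chimeras labelled ChimeraWT, from Foxp3YFPcre;wt mice, so that both genotypes carry the Foxp3-driven YFP-Cre allele and the deletion is limited to cells that have expressed Foxp3. H3K27ac lists exist for 3 knockouts and 3 controls, and H3K27me3 lists for 2 knockouts and 2 controls, and the 4 IgG samples are left aside. Libraries are numbered within a mark, so that H3K27ac libraries 1, 2 and 3 of a genotype are its chimeras 2, 3 and 4, while H3K27me3 libraries 1 and 2 are its chimeras 1 and 2. The titles number the chimeras without saying how they were made or whether each is a separate animal, so that a p-value measures the spread between these samples, which may be technical. No annotation of mm39, the build of the lists, was used here. No region is therefore assigned to a gene, the deletion and the cell-type markers were not checked, and no sequence is shown.

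Acetylation of lysine 27 on histone H3 is placed by the coactivators p300 and CBP at active promoters and enhancers, and it comes and goes as enhancers are switched on and off. Trimethylation of the same lysine is written by the Polycomb complex PRC2 on silent developmental and lineage genes. The same lysine cannot carry both marks at once, though it may carry neither. Slc31a1 encodes the membrane protein CTR1, through which cells take up copper, and regulatory T cells are the Foxp3-expressing T cells that restrain immune responses.

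Peak number and sensitivity differed among the lists. Knockouts 1 to 3 had 28289, 24154 and 21326 H3K27ac peaks, and controls 1 to 3 had 32012, 27986 and 29748. The pileup of fragments at a peak summit and the background that the peak caller set against it could be read back from the fold and −log10 p of almost every peak (between 99.99% and 100% of those below a −log10 p of 100, within 0.002). All 6 lists start at a −log10 p of 5. At the genome-wide background of a list, 12, 13 and 11 fragments at the summit reach that limit in knockouts 1 to 3, and 13, 11 and 11 reach it in controls 1 to 3. That background was 2.55, 3.05 and 2.40 fragments in the knockouts, against 2.88, 2.09 and 2.11 in the controls.

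Knockout-only regions lay next to a much larger body of partly shared regions. A peak in all 6 lists was found at 12813 regions. Of the regions with a peak in all 3 knockouts, 456 had a peak in 1 control and 899 in 2 controls. Of the 456 just outside the rule, 218 had their single control peak in control 1, 85 in control 2 and 153 in control 3. A further 907 regions had a peak in 2 knockouts and no control, and the missing knockout was knockout 1 in 406 of them, knockout 2 in 107 and knockout 3 in 394. Knockout 2, with the widest peaks, was thus seldom the one that kept a region out of the group.

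Regions on either side of the rule had similar strength. The mean −log10 p over the 3 knockout lists had a median of 10.7 across the 299 knockout-only regions and 11.1 across the 456 regions with 1 control peak, where the control peak itself had a median of 9.22. The 5 weakest knockout-only regions had a mean −log10 p between 6.12 and 6.55, close to the limit of 5. The strongest region kept out by 1 control was chr7:100355334-100356533, with a −log10 p of 69.3, 51.1 and 20.95 in knockouts 1 to 3 and 32.5 in control 1. The next was chr12:99704404-99707439, with 24.8, 34.7 and 31.3 in the knockouts and 5.34 in control 2. The control peak on chromosome 7 was at the 73.4 percentile of its list and that on chromosome 12 at the 1.16 percentile, so that a strong and a barely called control peak kept a region out alike.

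Most knockout-only regions held weak peaks for their own list. Ranking every peak of a list by −log10 p from 0 (weakest) to 100 (strongest), the peaks in knockout-only regions had a median percentile of 22.3, 33.8 and 29.0 in knockouts 1 to 3, a mean of 28.4 ± 5.80 (SD, n = 3). Peaks of the regions found in all 6 lists had 65.5, 69.5 and 60.3 in the same libraries. Peaks of the regions with other patterns of presence ranked low too, at 26.7, 23.9 and 21.9. Knockout-only peaks ranked above these in knockouts 2 and 3, and below them in knockout 1. Control-only peaks had 39.0, 31.4 and 29.1 in controls 1 to 3, so that a low rank was not particular to knockout-only regions. Only 2, 3 and 3 of the peaks in knockout-only regions lay above the 75th percentile in knockouts 1 to 3, and 174 of 308, 92 of 302 and 126 of 312 lay below the 25th. At the summit, a median of 22, 27 and 21.5 fragments was stacked in knockouts 1 to 3, over a median local background of 4.18, 4.73 and 3.53 fragments, and the median fold enrichment was 4.23, 4.70 and 4.41. Over all peaks of these lists the median pileup was 42, 43 and 37 fragments and the median background 7.49, 8.47 and 7.06, so that both pileup and background were lower in knockout-only regions, and the median fold was close to that of all peaks (4.76, 4.51 and 4.46).

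**Figure D1:**
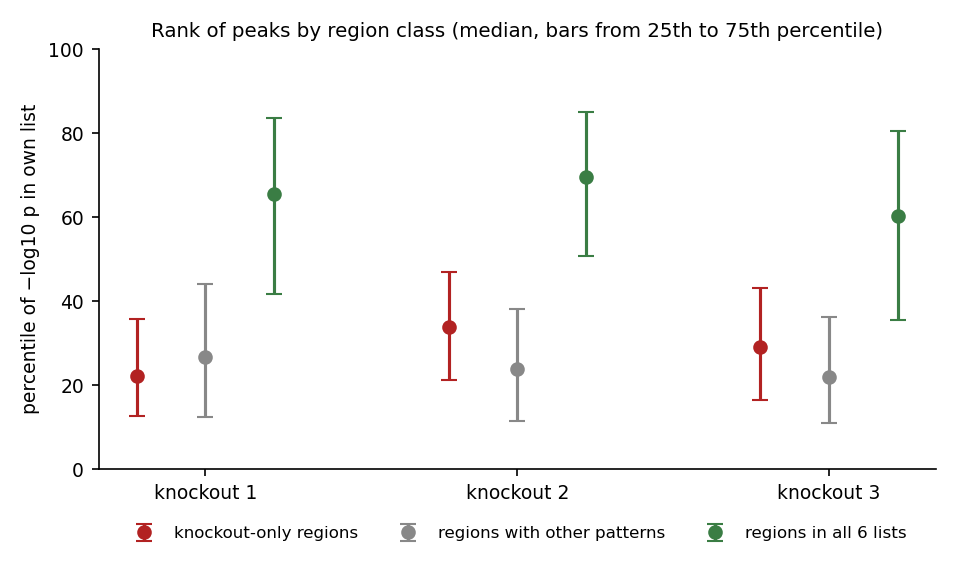
Percentile of −log10 p within the own list of knockouts 1 to 3 (vertical axis, 0 weakest, 100 strongest) for peaks in knockout-only regions, in regions with other patterns and in regions found in all 6 lists. Points are medians and bars run from the 25th to the 75th percentile over peaks. The knockout-only medians of 22.3, 33.8 and 29.0 lie far below the 65.5, 69.5 and 60.3 of regions found in all 6 lists. They lie nearer the 26.7, 23.9 and 21.9 of regions with other patterns.

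Short peaks rank low in any list, and at matched width the gap largely closed. Among peaks between the 25th and 75th percentile of knockout-only widths, the median percentile was 18.7 in knockout-only regions against 25.3 for all such peaks in knockout 1, 34.1 against 35.1 in knockout 2, and 28.6 against 29.3 in knockout 3. Knockout-only peaks therefore ranked much like other peaks of their width in knockouts 2 and 3, and somewhat lower in knockout 1.

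The 12 regions with the highest mean −log10 p are the top of a ranking with no gap at the cut. The mean was 52.99 at rank 1, 18.97 at rank 12 and 18.89 at rank 13. Both leaders lay on chromosome 4. At chr4:63006307-63008944 the −log10 p was 60.8, 48.6 and 49.6 in knockouts 1 to 3, with 102, 94 and 73 fragments at the summit over a background of 11.2, 12.7 and 6.62. The nearest control peaks were 35433, 14768 and 34932 bp away in controls 1 to 3. At chr4:62501113-62503520 the −log10 p was 45.6, 55.9 and 47.7, with 88, 104 and 86 fragments over 11.9, 13.2 and 10.6. Here each control had a peak close by, at 1469, 1687 and 1436 bp. The targeted gene Slc31a1 is also on chromosome 4 in the GRCm38.p6 gene table, but its position in mm39 was not used here, and so its distance from this pair was not measured.

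Below the leading pair, the 3 knockouts differed widely at the same region. At chr19:38363482-38365625 the −log10 p was 15.3, 58.9 and 36.3 in knockouts 1 to 3, with 28, 70 and 51 fragments at the summit. At chr10:93578602-93579702 it was 34.0, 37.97 and 22.3, with 41, 46 and 30 fragments. Knockout 1 was the low one on chromosome 19, and knockout 3 on chromosome 10. At chr5:44292031-44293364 the −log10 p was 12.8, 40.9 and 23.4, at chr12:62041008-62041831 it was 14.8, 39.7 and 16.6, and at chr1:191666170-191667282 it was 12.3, 38.8 and 19.8. In these 3 regions knockout 2 was far above both others on the −log10 p scale. The same order held at chr10:41312846-41314415, with 9.61, 32.04 and 26.7, at chr16:75939324-75940342, with 11.2, 30.2 and 19.4, and at chr13:99130120-99131532, with 5.94, 29.97 and 21.3. The last 2 of the 12 were chr4:62513642-62515605, with 15.03, 26.99 and 16.9, and chr6:29840619-29842665, with 23.5, 22.6 and 10.8. Across the 12 regions knockout 1 gave the lowest value in 9 and knockout 2 the highest in 10. A high mean −log10 p thus often rested on knockout 2, on a scale not adjusted for differences between the lists. By percentile in their own list, knockouts 1 to 3 had 36.5, 73.8 and 69.0 at chr5:44292031-44293364. At chr12:62041008-62041831 they had 42.9, 73.0 and 57.6, and at chr10:41312846-41314415 they had 23.0, 68.1 and 72.5. Over the 299 regions, knockout 2 had the highest percentile in 144 and knockout 1 the lowest in 151. The chromosome 4 pair and chr10:93578602-93579702 were the only 3 regions of the 299 with a −log10 p of 20 or more in every knockout.

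**Figure D2:**
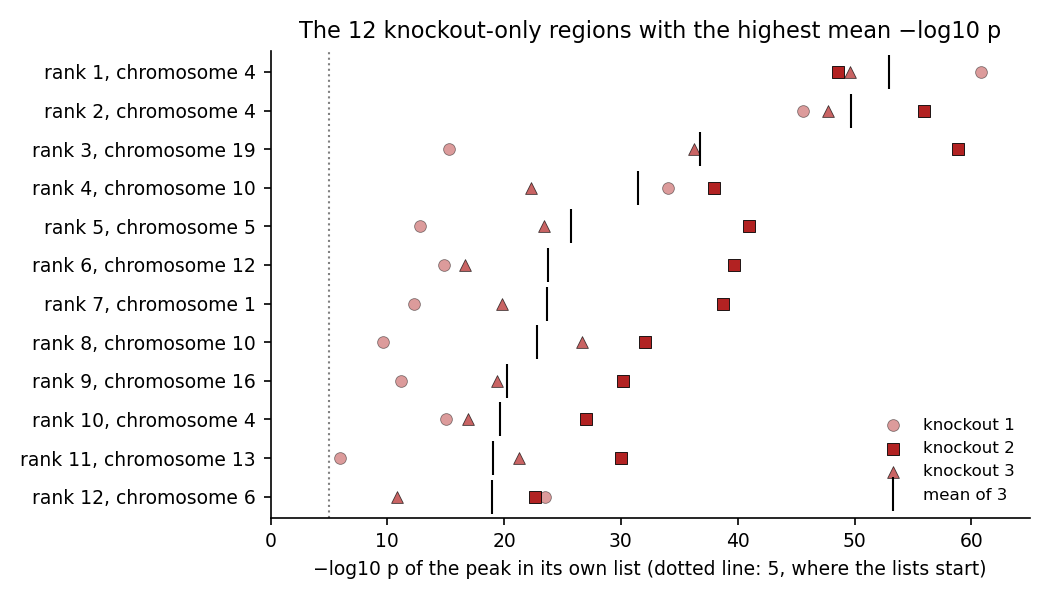
−log10 p of the peak in each knockout list (horizontal axis) for the 12 knockout-only regions with the highest mean, ranked from the top; symbols are knockouts 1 to 3 and the vertical tick is their mean. The first and second regions have all 3 values above 45, while from rank 3 the knockouts spread apart, with knockout 1 lowest in 9 of the 12.

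Many of these leading regions lay far from control peaks. Of the 12, 8 lay more than 10 kb from any control peak, against 63 of all 299 (21.1%). The most isolated was chr12:62041008-62041831, 2773805 bp from the nearest control peak and 2773460 bp from the nearest region found in all 6 lists. Only chr4:68034582-68034894, a short region of 313 bp, lay farther from a shared region, at 4215841 bp, with 20, 23 and 22 fragments at its summit in knockouts 1 to 3. The next most distant, chr16:7585887-7586712, lay 866179 bp from a shared region and had 30, 19 and 22 fragments. These 3 sites thus stood alone, and the one on chromosome 12 was also among the 12 strongest.

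Because the regions were chosen on the same lists that describe them, the pattern was also read in libraries that had no part in the choice. For each of the 9 pairs of 1 knockout and 1 control, regions were chosen from the other 4 lists, with a peak in both remaining knockouts and in neither remaining control, and were then looked up in the pair left out. Between 605 and 1200 regions were chosen each time. The left-out knockout had a peak at between 44.01% and 80.9% of them, a mean of 57.8%, and the left-out control at between 18.0% and 41.6%, a mean of 29.7%. The share was higher in the left-out knockout in 9 of 9 pairs, by between 4.17 and 55.9 percentage points. The 9 pairs share libraries, and regions are not replicates, so these shares carry no test. The share of all merged regions with a peak in each left-out library was not set beside them.

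The gap depended on which knockout was left out. With knockout 2 left out, 78.1%, 79.2% and 80.9% of the chosen regions had a peak in it, against 41.6%, 23.3% and 30.8% in controls 1 to 3. With knockout 1 left out the shares were 51.5%, 44.01% and 46.9%, against 30.9%, 22.4% and 28.2%. With knockout 3 left out they were 45%, 47.9% and 46.3%, against 40.8%, 18.0% and 30.9%. The narrowest gap set knockout 3, the shortest list, against control 1, the longest. Counting only peaks with a −log10 p of 20 or more, 2 of the 9 pairs turned round, with 27.8% in knockout 3 against 43.6% in control 1, and 33.3% in knockout 3 against 39.4% in control 3. With all lists held to equal length, the left-out knockout was higher in all 9 pairs, by a mean of 33.3 points.

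**Figure D3:**
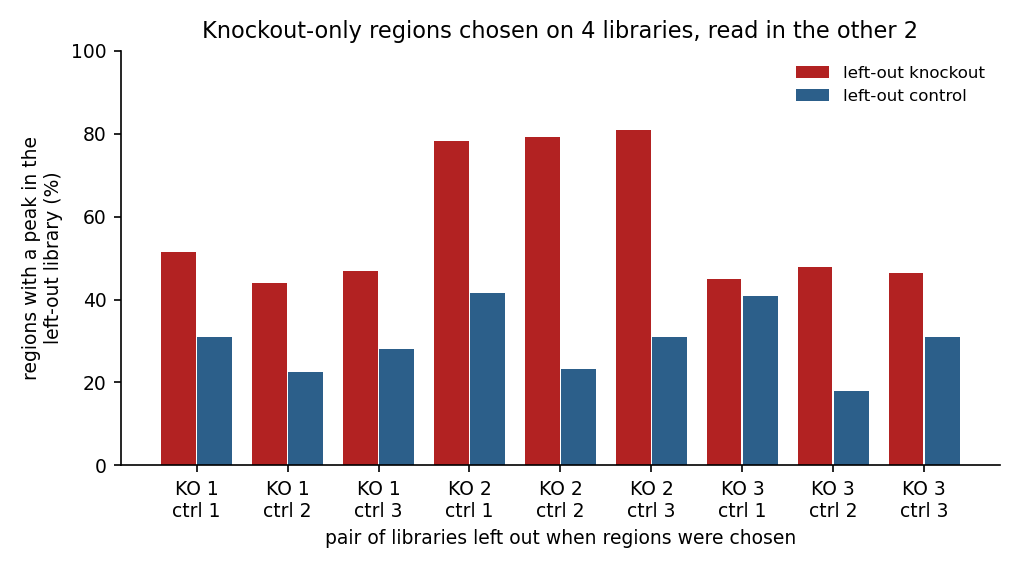
Share of regions with a peak in the left-out knockout (red) and in the left-out control (blue), in percent, for each of the 9 pairs of libraries left out when the regions were chosen. The knockout bar is the higher one in every pair, from 45% against 40.8% (knockout 3 and control 1) to 79.2% against 23.3% (knockout 2 and control 2).

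The same reading of regions chosen on the controls gave a wider gap. Regions chosen on 2 controls and absent from 2 knockouts had a peak in the left-out knockout at between 6.75% and 46.3%, and in the left-out control at between 62.1% and 74.2%. The mean share in the left-out library of the own genotype was 57.8% for the sets chosen on 2 knockouts and 67.3% for those chosen on 2 controls. This difference was not tested between lists of different length.

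Knockout-only regions mostly held single peaks, short beside those of regions found in all 6 lists. Their merged width had a median of 874 bp, between 313 and 3481 bp, and together they covered 293.9 kb. Within them, the peaks had a median width of 429, 702.5 and 530.5 bp in knockouts 1 to 3, a mean of 554 ± 138 bp (SD, n = 3). Peaks in regions found in all 6 lists had 1388, 1782 and 1232 bp. Those in regions with other patterns had 481, 541 and 448 bp, and control-only peaks had 652, 539 and 508 bp in controls 1 to 3. Short peaks were thus not particular to knockout-only regions. Each knockout had exactly 1 peak in 275 of the 299 regions (91.97%). Knockout 2 covered the most bases in 191 regions, knockout 3 in 58 and knockout 1 in 50, and this order matches the median width of all autosomal peaks, which was 899, 1064 and 936 bp in knockouts 1 to 3.

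The 3 knockout peaks of a region mostly had summits close together, which merging at overlap into short regions favours by construction. The same was not counted in other regions. Their summits lay within 500 bp of each other in 254 regions (84.9%) and within 200 bp in 134, with a median range of 220 bp. In 285 regions some bases were under a peak of all 3 knockouts, with a median of 313 such bases over the 299 regions, or 38.2% of the merged width. In the other 14 the peaks were only chained to each other, and chr6:86616230-86618240 is an example, with summits 1629 bp apart. The widest region, chr10:18972458-18975938 of 3481 bp, was wide in knockout 2 alone, which had 3347 bases under peaks there, while knockouts 1 and 3 had 576 and 1115. The second, chr10:93543161-93546053, had 1899, 2869 and 1972 bases in knockouts 1 to 3 and summits within 1 bp of each other. The third widest was the leading region at chr4:63006307-63008944, with 2388, 2483 and 2469 bases, the most even of the 3.

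Many knockout-only regions were neighbours of chromatin acetylated in both genotypes. The nearest region found in all 6 lists lay at a median of 4556 bp, edge to edge, with 66 of 299 (22.1%) within 1 kb, 88 (29.4%) from 1 to 5 kb, 79 (26.4%) from 5 to 20 kb, 36 (12.04%) from 20 to 50 kb and 30 (10.0%) beyond. Control-only regions lay farther from such shared regions, at a median of 11118 bp, with 14.2% within 1 kb and 21.7% beyond 50 kb. The 22720 regions with other patterns had a median of 7313.5 bp. The knockout-only median moved to 6621 bp with lists of equal length, 8180 bp with peaks within 1 kb merged and 12950 bp with peaks of a −log10 p of 20 or more, where the control-only median was 17622, 18108 and 36433 bp, and it was 1857 bp when only the bases under all 3 knockout peaks were taken. Strength changed little with distance from a shared region. The median of the mean percentile was 29.1 for knockout-only regions within 1 kb of a shared region and 34.7 for the 30 beyond 50 kb, with values between 27.7 and 28.9 in the 3 classes between.

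**Figure D4:**
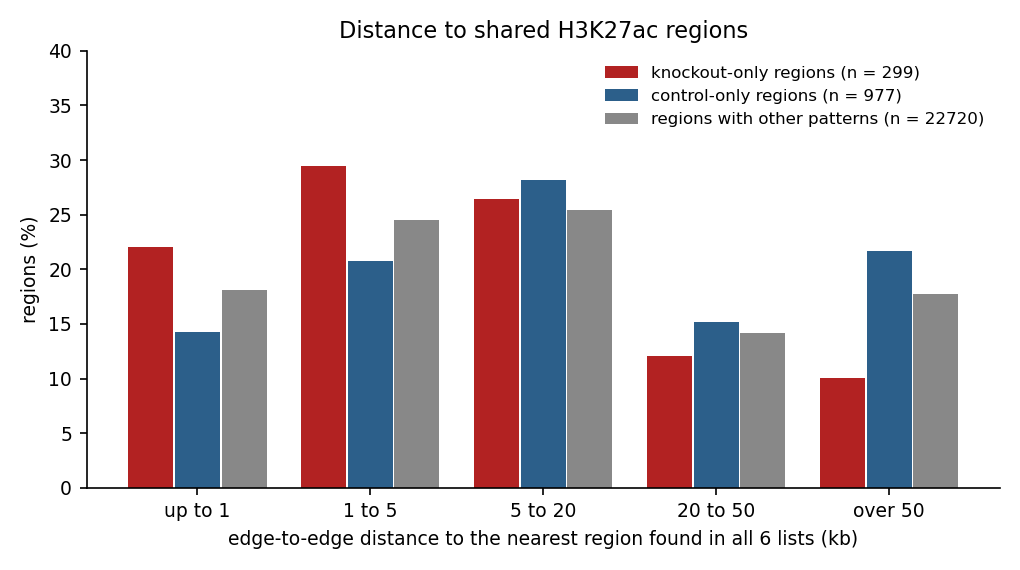
Share of regions, in percent, by distance in kb to the nearest region found in all 6 lists, for knockout-only, control-only and other regions. Knockout-only regions exceed both other classes within 1 kb (22.1%) and from 1 to 5 kb (29.4%), and fall below both beyond 50 kb (10.0%).

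A control peak was often closer still. The nearest peak of any control lay at a median of 1669 bp, and 108 of 299 regions (36.1%) had 1 within 1 kb. Measured to each control alone, the median was 2830, 3363 and 2701 bp in controls 1 to 3. The region nearest to a shared one, chr6:86616230-86618240, was 7 bp from it. Many of these regions thus lie beside acetylation that the controls also had. When peaks within 1 kb of each other were merged before the rule was applied, 179 regions met it.

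The shared regions beside knockout-only regions were also longer in the knockouts. The 150 shared regions within 5 kb of a knockout-only region had a median of 1984.5, 2392.5 and 2041 bases under peaks in knockouts 1 to 3, against 1786, 1801 and 1840 in controls 1 to 3. The knockout mean was the higher one in 131 of the 150 (87.3%), against 58.2% over all 12813 shared regions, and the median log2 ratio of knockout to control bases was 0.26 over the 150 and 0.05 over all. The 313 shared regions within 5 kb of a control-only region went the other way, with the knockout mean higher in 21.1% and a median log2 ratio of -0.27. These bases come from the same libraries as the rule, so they describe the surroundings of the chosen regions and carry no test.

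Knockout-only regions were scattered, with few groups. Another one lay within 50 kb of 60 of the 299 (20.1%), and chaining them at that distance left 239 alone, 20 pairs and 5 longer runs. They fell in 231 stretches of 1 Mb, of which 190 held a single region. Control-only regions, of which there are more, had another within 50 kb in 39.0%, and 51 runs of 3 or more. The share of grouped regions rose to 42.8% when knockout 1 was left out, a setting that also eases the rule and gives 712 regions. It was 24.8% without knockout 3, which gives 710 regions, and the cause of the rise was not tested.

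The longest run held 8 knockout-only regions in 96.0 kb, at chr10:93483691-93579702. Over the whole stretch 26582, 33577 and 27160 bases were under peaks in knockouts 1 to 3, against 9693, 9950 and 9627 in controls 1 to 3, with 27, 23 and 17 peaks in the knockouts and 7 in each control. Of its 25 merged regions, 5 were found in all 6 lists, 20 had a peak in more knockouts than controls, and none had a peak in more controls. The 8 regions ran from a mean −log10 p of 7.90 at chr10:93566514-93567539, with 7.14, 6.004 and 10.5 in knockouts 1 to 3, to 31.4 at chr10:93578602-93579702 at its far end. Between them, chr10:93543161-93546053 had 14.0, 25.6 and 17.0, and chr10:93561678-93562780 had 17.1, 21.5 and 10.1. The length under peaks in each knockout was thus above that in each control, in a stretch that also held 5 regions common to both genotypes. The 8 knockout-only regions, which have no control peak by the rule and are among the 20, favour this difference by construction.

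**Figure D5:**
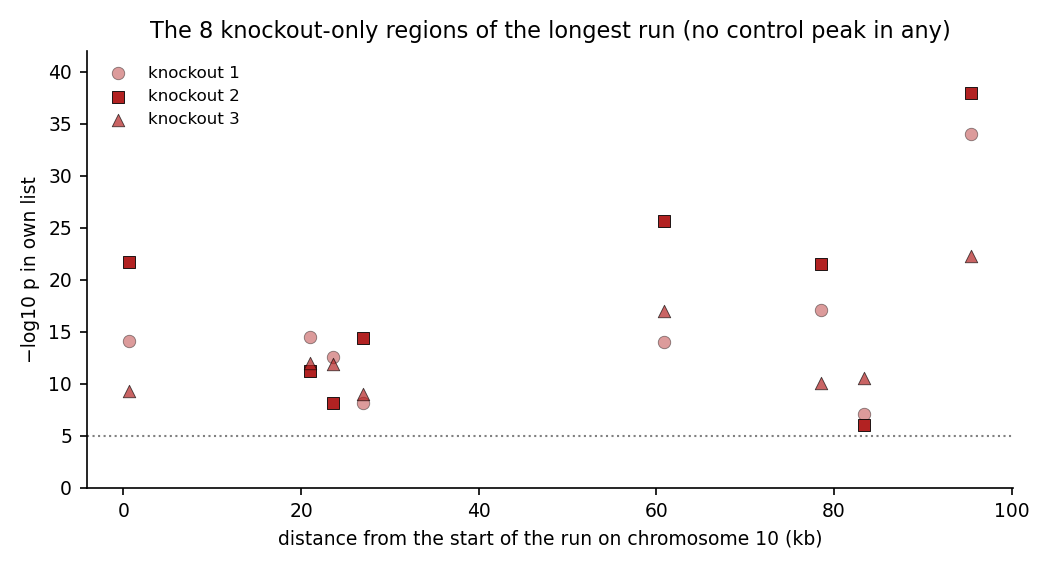
−log10 p in knockouts 1 to 3 (vertical axis; the dotted line at 5 is where the lists start) of the 8 knockout-only regions of the chromosome 10 run, by distance in kb from its start. All 24 values lie above the limit, the highest in knockouts 1 and 2 at the last region (34.0 and 37.97), and no control had a peak in any of the 8.

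The other 4 runs held 3 regions each. The run at chr4:62501113-62538243 began with the second strongest region and went on with chr4:62513642-62515605 and chr4:62536966-62538243, the last with a −log10 p of 10.1, 21.5 and 8.06 in knockouts 1 to 3. Its 37.1 kb held 11397, 15495 and 11821 bases under peaks in the knockouts, against 2157, 2896 and 3265 in the controls. The 3 knockout-only regions favour this difference by construction too. In the megabase from 62000001 to 63000000 of chromosome 4, 4 of 37 merged regions (10.8%) were knockout-only and 0 were control-only, and the adjoining megabase held the leading region. No other 1 Mb stretch with at least 4 knockout-only regions had so high a share; the chromosome 10 stretch from 93000001 to 94000000 had 8 of 95 (8.42%).

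The remaining runs were weaker, with no region above a mean −log10 p of 12.7. At chr6:86588003-86631853 the knockouts had 10838, 16153 and 11505 bases under peaks and the controls 5411, 5791 and 5919. At chr12:99311480-99398444 the knockouts had 11361, 24712 and 18048 and the controls 9572, 11013 and 8299. At chr14:53596838-53612281 the knockouts had 2417, 4489 and 2382 and the controls 1244, 1541 and 1560. In each of these 3 stretches every knockout was above every control, which the presence of knockout-only regions favours by construction.

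By chromosome, the share of merged regions that were knockout-only ranged from 0.406% on chromosome 2 (11 of 2708, exact binomial 95% interval 0.203 to 0.726%) to 1.51% on chromosome 10 (32 of 2123, 1.03 to 2.12%), and the interval covers counting error only. Without its run of 8, chromosome 10 had 1.13%, and chromosome 12 then came first at 1.18%, or 1.36% with its run of 3. Chromosome 4 as a whole had 17 of 2250 (0.756%), so that its leading regions did not go with a high share along the chromosome.

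Fewer knockout-only regions than merged regions at large had Polycomb chromatin nearby, in each of the 4 H3K27me3 libraries. An H3K27me3 peak lay within 50 kb of 56 of 299 regions (18.7%) in knockout 1 and 74 (24.7%) in knockout 2, against 22 (7.36%) in control 1 and 79 (26.4%) in control 2. Over all 36809 merged H3K27ac regions the shares were higher, at 25.5% and 35.97% in the knockouts and 13.1% and 33.2% in the controls. The median distance to H3K27me3 was 142.6 and 95.6 kb in the knockouts and 234.7 and 95.6 kb in the controls for knockout-only regions, against 106.2 and 75.6 kb, and 192.3 and 81.5 kb, for all merged regions. The list of control 1 is short, with 7507 autosomal peaks of a −log10 p between 2.02 and 7.21, while the other 3 lists start above 9. Distances to control 1 are therefore long for every class of region. Control-only regions had 25.9% and 35.9% in the knockouts and 9.11% and 30.1% in the controls, so that they too were below all merged regions in both control libraries, while in the knockouts they were close to them. These shares describe places and carry no test.

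Most knockout-only regions near H3K27me3 were near it in both genotypes. Of the 79 knockout-only regions with H3K27me3 within 50 kb in control 2, 52 also had it in both knockouts and 12 in neither. Another 8 regions had it in a knockout and not in control 2. The same overlap was not counted over all merged regions, so these counts do not tell knockout-only regions from others. The closest approach to a knockout peak was at chr1:191666170-191667282, 2761 bp from H3K27me3 in knockout 2 and 5524 bp in knockout 1, and 674 bp in control 2. At chr10:75762042-75762598 the distance was 2892 bp in knockout 2 and 111564 bp in knockout 1, against 3206 bp in control 1 and 2885 bp in control 2. At chr7:117679004-117679996 it was 3386 bp in knockout 2 but 228281 bp in knockout 1, against 410816 and 46043 bp in controls 1 and 2. Of these 3, the site on chromosome 1 alone had H3K27me3 within 10 kb in both knockouts, and on chromosome 7 knockout 2 alone had a peak so near.

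No knockout-only region overlapped an H3K27me3 peak in either knockout, where 14 (0.0380%) and 80 (0.217%) of all 36809 merged regions did in knockouts 1 and 2, and 2 did so in a control. With so low a share at large, the 0 of 299 is no result about these regions. Both, singled out after their values were seen, lay under a peak of control 2. At chr13:60749944-60751023 the H3K27ac −log10 p was 14.4, 12.6 and 7.99 in knockouts 1 to 3, and the nearest H3K27me3 was 56868 and 53950 bp away in knockouts 1 and 2. At chr1:173449672-173450488 the H3K27ac −log10 p was 5.94, 6.51 and 9.49, and H3K27me3 was 220941 and 119049 bp away in the knockouts. Control 1 had no H3K27me3 peak at either, with the nearest at 1039998 and 232222 bp. The 2 of 299 (0.669%) compare with 26 of all 36809 merged regions (0.0706%) under a control 2 peak, and the observation rests on that 1 library.

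The H3K27me3 libraries were not used to choose the regions, so the change in this mark around them could be tested. The bases under H3K27me3 peaks were summed in a window reaching 50 kb to each side of every merged H3K27ac region, and 11946 windows with a covered base in at least 2 of the 4 libraries were tested with limma on log2(bases + 1000), with Benjamini-Hochberg adjustment at 0.05. Across these windows 7 were higher in knockouts (0.0586%) and 0 were lower (0%), with 633 and 577 at an unadjusted p under 0.05. The fit includes control 1, whose 7507 peaks had a −log10 p between 2.02 and 7.21. The other H3K27me3 lists start above that range, so the covered bases of control 1 come from weaker peaks. The test cannot separate a change between genotypes from this difference in the lists. The 7 calls became 0 with the replicate number as a block, without centring, or with 100 bases as the pseudocount. Windows reaching 100 kb to each side gave 25 higher and 138 lower. Of the 299 knockout-only regions, 70 had a window that could be tested, and 0 were called in either direction, with 4 higher and 4 lower at an unadjusted p under 0.05. The median log2 change, knockout minus control, was -0.17 over these 70 windows and -0.07 over all windows, and 31 of the 70 were above 0. This direction turned with the scaling, since the median over the 70 was 0.52 with 55 above 0 without centring, and 0.61 with 37 above 0 with a pseudocount of 100 bases, where the median over all windows was 0.62 and 0.45. Without knockout 2, limma called 3 of 57 knockout-only windows lower, beside 316 lower (3.29%) and 37 higher of all 9600. Without control 2 it called 3 lower and 1 higher of 59, beside 182 lower (1.81%) and 248 higher (2.47%) of all 10045. Without control 1 the median log2 change was -0.04 over the 70 knockout-only windows and 0.01 over all windows. Each of these fits leaves 1 library in a genotype, which is assumed to vary like the other genotype's pair.

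Windows with a small p show how much the 2 libraries of a genotype differed. Around chr15:98487493-98488167 the covered H3K27me3 bases were 0 and 3404 in knockouts 1 and 2, against 2307 and 3875 in controls 1 and 2, which gave -1.63 as the log2 change with an SE of 0.510 and an adjusted p of 0.234 in limma. The bases are sums over the deposited peaks and the fitted change is after centring, and before centring the change was -0.94. On the scale of bases, knockout 2 lay between the controls, and knockout 1 alone was below both. That window ranked 1 by p among the knockout-only windows. Those at ranks 2 and 3 also had a negative fitted log2 change, of -1.51 and -1.45, which was -0.82 and -0.76 before centring. At rank 2 the bases were 2387 and 26642 in knockouts 1 and 2, against 11518 and 22342 in controls 1 and 2. At rank 3 they were 0 and 2634, against 2023 and 2459. In both windows knockout 2 was above both controls, and knockout 1 alone was below them. Rank 4 was chr19:38363482-38365625, one of the 12 strongest regions. Its bases were 2238 and 4794 in the knockouts against 0 in both controls. This gave 1.42 after centring, with an SE of 0.552 and an adjusted p of 0.307 in limma, and 2.11 before centring. The nearest H3K27me3 of control 2 lay 57070 bp away, past the window edge at 50 kb. That of control 1, the short list, lay 103378 bp away. At this place both marks were found nearby in the knockouts, with H3K27me3 at 23043 and 10991 bp from the acetylated region, and the H3K27me3 difference did not pass the test.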

How the data were processed

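The deposited files are 1 peak list per library, so peaks were called per sample. Per the submitters' processing notes, the tools were Bowtie2 2.2.4, deepTools 3.5.1, MACS2, ChIPseeker 1.30.3 and HOMER 4.11, with build mm39; settings, background libraries and duplicate handling are not given in the sources used here. The deposited columns hold peak ends, a score (the −log10 p multiplied by 10 and truncated), a fold enrichment, the −log10 p-value and q-value, and the summit. Such values are the authors' own and served to rank and describe peaks inside a list.

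Lists were merged and compared in Python 3.11.15 with pandas 2.3.3, counting positions from 1 and distances edge to edge. Pileup and background were read back by assuming a Poisson model and a fold of (pileup + 1) over (background + 1). Windows were centred on the median of those covered in every library and fitted by limma 3.58.1 (R 4.3.3) using a trended, robust prior variance and no block. Interval functions and the limma step were tested on simulated data. Gene positions were given for GRCm38.p6 and not for mm39, so planned gene, promoter and motif counts were not made.

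The regions named are the 12 strongest by mean −log10 p, the 3 widest, runs of 3 or more, the 3 nearest H3K27me3 in a knockout, the 3 farthest from shared regions, the 5 weakest and the strongest just outside the rule; other choices are said to be so. Where a region held several peaks of a list, the strongest was used. The members and lists were chosen with earlier results of these data known.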

Additional observations from a re-analysis of the deposited data

How the results depend on the processing

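Peak lists give presence and length, not read counts, and a region absent from a list may lie just under its limit. No cause of the changes below was tested, except that fewer libraries ease the rule and a stricter limit applies to the control peaks too. The 299 knockout-only regions became 449 with lists of equal length, 179 with peaks within 1 kb merged, 552 when bases under all 3 knockout peaks had to be free of control peaks, and 113 when only peaks with a −log10 p of 20 or more counted in every list, and between 392 and 712 when 1 library was left out (712 without knockout 1, 464 without knockout 2, 710 without knockout 3, 519 without control 1 and 452 without control 3). Of the 113, 3 overlap the 299, and the other 110 overlap a control peak below the stricter limit. Under the same 4 settings the median distance to shared regions was 6621, 8180, 1857 and 12950 bp, and 4764 bp with X and Y added (between 3291 and 4786 bp without 1 library). The median peak width was 1436 bp with the stricter limit (between 453 and 566 bp without 1 library). The rank percentile was 37.7 with equal lengths and 67.9 with the stricter limit (between 23.4 and 29.6). The share within 50 kb of another was 11.2% with 1 kb merging, 33.2% with common bases and 14.2% with the stricter limit (between 22.4 and 42.8%). The share near H3K27me3 in knockouts was between 18.7 and 25.4% without 1 library.

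In the H3K27me3 test, windows called lower numbered 2 with 10 kb flanks, 138 with 100 kb flanks and 11 with lists cut to the second shortest, and between 0 and 316 without 1 library (316 without knockout 2, 182 without control 2). Windows called higher numbered 0 with a pseudocount of 100 bases (853 at an unadjusted p under 0.05) and 0 without centring (24), 25 with 100 kb flanks, and between 4 and 248 without 1 library (37 without knockout 2, 18 without control 1, 248 without control 2). The median log2 change over all windows was 0.62 without centring, against -0.07 with it. With cut lists, 1 of 66 knockout-only regions was called lower, beside 11 lower (0.100%) and 10 higher (0.0913%) of all 10949 windows. With the replicate number as a block, limma called 0 higher and 0 lower (328 and 810 at an unadjusted p under 0.05), and 0 knockout-only regions. Same-numbered deviations had a correlation of 0.00618 across H3K27me3 windows, and the main fit did not take the numbers to pair the samples. This correlation cannot show a shift common to a whole library, and the H3K27ac libraries were not examined, so it does not settle whether samples are paired.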

Other observations

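The X chromosome was outside the rule and is described here only. Its 764 merged H3K27ac regions held 5 that were knockout-only (0.654%) and 21 that were control-only (2.75%), shares close to the 0.812% and 2.65% of chromosomes 1 to 19, and 293 were found in all 6 lists.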
